A study of Mus musculus with 15 samples.

Results

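The genes described here are 34 genes for chaperones, folding enzymes, protein degradation, sensing and translocation of the endoplasmic reticulum, taken by name. They were chosen with earlier results of these data known. All 34 were matched by mouse symbol to the Entrez identifiers of the count files, which hold 27179 identifiers, and all 34 were among the 12712 genes with enough counts to be tested. They fall into 10 heat shock protein chaperones and cofactors, 2 lectin chaperones, 8 disulfide isomerases and related proteins, 6 genes of the degradation of misfolded proteins, 4 sensors and transcription factors, and 4 genes of the translocon.

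RNA was sequenced from 5 populations of 4T1, a mouse mammary carcinoma cell line, with 3 biological replicates of each and 15 libraries in all. The parental population has the genotype WT. The populations E1, E2, A and M express the near-infrared fluorescent protein iRFP670: parental cells were transfected with the plasmid pNLS-iRFP670, and each population was grown from a single cell of that culture. All 5 were kept in RPMI-1640 with serum, and the 4 clonal populations also in the antibiotic G418, which was withdrawn before RNA was collected. Each clonal population is 1 clone, and the parental population had neither the plasmid nor G418, so clone, transfection and selection cannot be told apart in a comparison of a clone with the parental population.

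The endoplasmic reticulum folds proteins bound for secretion and for membranes. When unfolded proteins build up there, the sensors IRE1 (gene Ern1), PERK (Eif2ak3) and ATF6 (Atf6) start the unfolded protein response: IRE1 splices the RNA of Xbp1 into the form that encodes an active transcription factor, ATF6 is cut to release one, and PERK slows translation. XBP1 and ATF6 raise transcription of chaperones and of degradation genes, and BiP, the product of Hspa5, binds the sensors and holds them inactive. Carcinoma cells are known to draw on this response to fold what they secrete.

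The libraries held 20143111 to 36831801 counts, of which 41792 to 114456 fell on the 34 genes. Between 61.4% and 72.1% of a library went to the 6 most counted genes. Of 8 epithelial markers, 8 were detected in each population. Their summed level was 354 to 398 CPM (read counts scaled to a fixed library total) in the parental libraries and 555 to 864 CPM in the libraries of the clones, with no overlap. The markers did not all move together. Epcam, Krt7, Krt8, Krt18, Cldn3 and Cldn4 were lowest in the parental population. Cdh1 was highest in the parental population and lowest in A, and Cldn7 was highest in M and lowest in A. Ptprc, which marks leukocytes in general, was at 0 in 4 populations and at a mean of 0.0155 CPM in E1, and the fibroblast markers Dcn and Lum were at 0 in all libraries. The summed level of the 6 fibroblast markers was 21.1 to 33.8 CPM in A against 3.15 to 12.1 CPM in the other libraries. Pdgfra made up nearly all of it, at 26.4 ± 6.6 CPM (SD, n = 3) in A and 7.13 ± 0.33 CPM in the parental population. The 8 leukocyte markers, of which 4 were at 0 in all libraries, summed to at most 1.24 CPM and the 5 endothelial markers to at most 0.425 CPM in any library. Of 6 markers of plasma cells, which secrete antibody, Igkc and Tnfrsf17 were at 0 in all libraries, and the list's sum was 28.0 to 32.8 CPM in A against 16.2 to 25.8 CPM elsewhere, nearly all of it Sdc1, which epithelial cells also express. The part of these markers in the results was not tested.

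Some of these genes carry an endoplasmic reticulum stress element, ERSE, in the promoter. It is written as CCAAT, 9 unspecified bases and CCACG, and it was searched on both strands of RefSeq promoters (assembly GRCm38.p6) that run from 250 bases before to 50 bases after the gene start. A RefSeq promoter was on hand for 27 of the 34 genes. ERSE was found in 8 of these 27, or 29.6%, against 0.137% of 27025 genes: Calr, Canx, Creld2, Dnajc3, Hsp90b1, Hspa5, Pdia6 and Syvn1. The related ERSE-II, written as ATTGG, 1 unspecified base and CCACG, was found in Dnajb11 and Herpud1, and in 0.044% of genes. CCAAT, which is contained in ERSE and is counted again here, was in 22 of the 27 (81.5%, against 41.1% of genes), and CCACG was in 23 (85.2%, against 35.5%). TGACGTGG, a site for XBP1 and ATF6, was found in Txndc5, 1 of the 27 (3.70%, against 0.714% of genes). TGACGTCA, the cyclic AMP response element, was found in 0 of the 27 and in 2.03% of genes. A match is only a match of letters.

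The sequences below are from genes that hold an element, and these genes were not all called in the same clones. They run 5′ to 3′ on the strand of the gene, and capitals mark the fixed letters of ERSE, or of ERSE-II in Herpud1. For Hspa5 the 250 bases before the start are given, and for the others the element with 20 bases on either side.
Hspa5, chr2:34771840-34772089, plus strand: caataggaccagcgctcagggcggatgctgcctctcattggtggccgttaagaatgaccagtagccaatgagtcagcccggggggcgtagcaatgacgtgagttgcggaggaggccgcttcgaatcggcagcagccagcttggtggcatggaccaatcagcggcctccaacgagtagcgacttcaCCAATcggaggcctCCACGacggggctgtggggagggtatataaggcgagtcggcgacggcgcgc
Dnajc3, chr14:118937807-118937865, plus strand: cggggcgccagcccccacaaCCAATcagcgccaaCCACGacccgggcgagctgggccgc
Calr, chr8:84847055-84847113, minus strand: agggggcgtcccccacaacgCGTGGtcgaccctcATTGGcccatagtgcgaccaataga
Canx, chr11:50325780-50325838, minus strand: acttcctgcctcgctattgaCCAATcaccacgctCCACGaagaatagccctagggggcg
Hsp90b1, chr10:86705513-86705676, minus strand: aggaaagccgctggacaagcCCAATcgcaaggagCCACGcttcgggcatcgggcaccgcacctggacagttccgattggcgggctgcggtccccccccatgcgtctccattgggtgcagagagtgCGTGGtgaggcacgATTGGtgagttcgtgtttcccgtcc
Syvn1, chr19:6046512-6046570, plus strand: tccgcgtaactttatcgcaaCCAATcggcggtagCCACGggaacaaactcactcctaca
Herpud1, chr8:94386357-94386407, plus strand: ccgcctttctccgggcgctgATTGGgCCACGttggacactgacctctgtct
Hsp90b1 holds 2 elements, on opposite strands. In Hspa5 the element begins 65 bases before the start, in Dnajc3 105 bases, in Canx 145 and in Calr 162 bases before it.

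**Figure D1:**
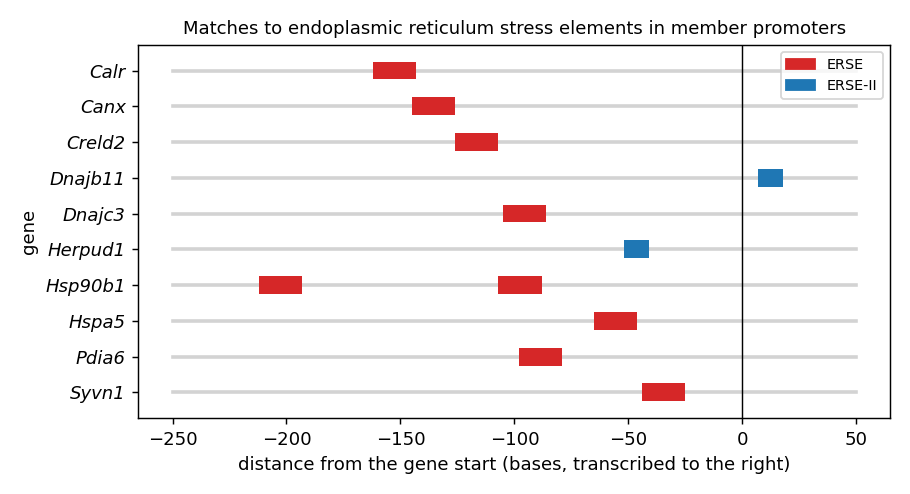
Positions of ERSE (red) and ERSE-II (blue) in the RefSeq promoters of the 10 genes that hold one, with the distance from the gene start in bases on the horizontal axis and 0 at the start. ERSE lies before the start in all 8 genes that hold it, beginning between 212 and 44 bases before it, and ERSE-II of Dnajb11 begins 7 bases after the start.

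Hspa5, the most abundant of the 34 genes per length of transcript in the parental population, was lower in all 4 clones, and many of the others were lower in E1 and E2 than in the parental population. Calls rest on edgeR's quasi-likelihood test over all 12712 genes, at a Benjamini-Hochberg adjusted p under 0.05. In E1, 14 of the 34 genes were lower and 0 higher, where 15.1% of all tested genes were called, 7.35% lower and 7.77% higher. In E2, 15 were lower and 0 higher, where 17.9% of all genes were called, 8.8% lower and 9.14% higher. At an unadjusted p under 0.05, still 0 were higher in E1 and 0 in E2, and DESeq2 called 0 higher in either. In M, 9 were lower and 1 was higher, where 14.1% of all genes were called, 6.28% lower and 7.87% higher. In A, 8 were lower and 4 were higher, where 30% of all genes were called, 14.9% lower and 15.1% higher. E1 had a median log2 fold change over the 34 genes of -0.47, E2 of -0.50, M of -0.17 and A of 0.12, against medians over all genes of -0.01, 0.01, -0.01 and 0.03. The 4 comparisons share the parental libraries, and in bulk RNA fewer cells that express a gene and less of its RNA per cell cannot be told apart. The share of these genes called lower was thus above that of all genes in each clone. In A it was 23.5% (8 of 34) against 14.9%. The genes were chosen with earlier results of these data known, so these shares do not test the list.

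The median in A was small and rested on single libraries: it was 0.03 without parental replicate 1 (all genes 0.02), 0.05 without A replicate 3, 0.04 without parental replicate 1 and E2 replicate 1 together, and 0.06 with the share of the most counted gene as a covariate. In M the median reached -0.26 without M replicate 2. Without parental replicate 3, 7 genes in place of 12 were called in A. The shares of all genes also moved: in E1, 8.27% were called without E1 replicate 2 and 8.94% without E1 replicate 3, and in M 8.75% without M replicate 3. E2 called 1440 of all genes in place of 2281 without parental and E2 replicate 1 together. With 1 library left out, 11 to 14 of the 34 were called in E1, 13 to 15 in E2 and 7 to 10 in M. Over the 5 populations, 21 of the 34 genes differed, where 40.9% of all genes did.

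**Figure D2:**
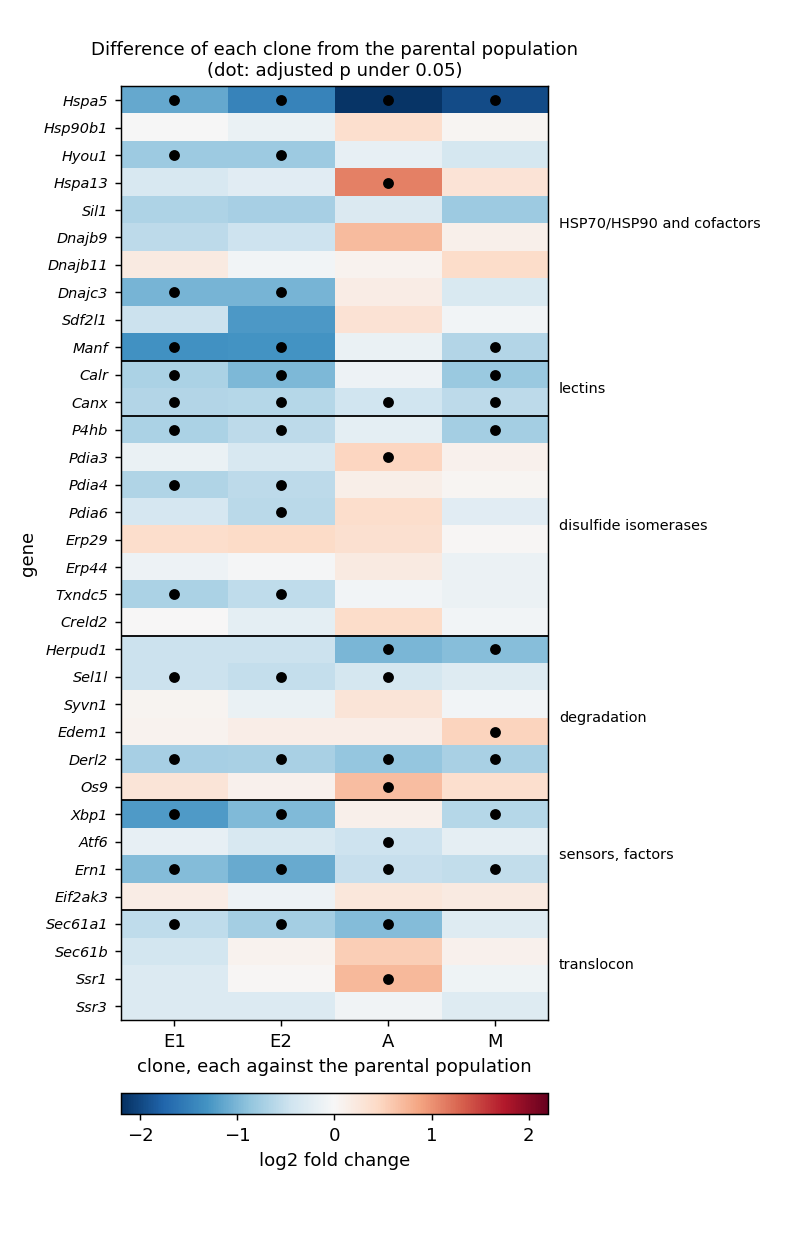
Log2 fold change of each of the 34 genes (rows, grouped by role) in each clone against the parental population (columns), in colour, with a dot where the adjusted p was under 0.05. Hspa5, Canx, Derl2 and Ern1 carry a dot in every column on the lower side, E1 and E2 carry no dot on the higher side, and A has 4 dots on the higher side.

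Among the heat shock protein chaperones and their cofactors, 4 of 10 were lower in E1 (40%), 4 in E2 (40%) and 2 in M (20%). In A, 1 was lower (10%) and 1 was higher (10%). Of all genes, 7.35% were lower in E1, 8.8% in E2 and 6.28% in M, and in A 14.9% were lower and 15.1% higher. Hspa5 encodes BiP, the main HSP70 chaperone of the endoplasmic reticulum. Its level was 1087, 923 and 943 CPM in the parental libraries, 509, 418 and 431 in E1, 412, 334 and 318 in E2, 205, 225 and 231 in A, and 268, 236 and 255 in M. No library of a clone came near the lowest parental library, and all libraries of A and M lay below all libraries of E1 and E2. For Hspa5, E1 had a log2 fold change of -1.12 ± 0.116 (SE) (2.18-fold lower, edgeR adjusted p = 5.30e-06), E2 of -1.47 ± 0.137 (2.78-fold, adjusted p = 6.56e-08), A of -2.16 ± 0.0898 (4.47-fold, adjusted p = 4.33e-11) and M of -1.96 ± 0.0914 (3.89-fold, adjusted p = 3.12e-10), each against the parental population. Compared directly, A was lower than E1 by 2.05-fold (adjusted p = 3.00e-06) and lower than E2 by 1.61-fold (adjusted p = 0.000769), and M was lower than E1 by 1.79-fold (adjusted p = 0.000574). E2 against E1 (log2 fold change -0.35, adjusted p = 0.420), M against E2 (-0.49, adjusted p = 0.0510) and A against M (-0.20, adjusted p = 0.369) did not pass. M against E2 passed in 5 of 24 alternative settings, with adjusted p between 0.00685 and 0.211.

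Hsp90b1 encodes GRP94, the HSP90 chaperone of the same compartment. It was at 292, 384 and 351 CPM in the parental libraries, 282, 364 and 377 in E1, 253, 348 and 329 in E2, 384, 443 and 501 in A, and 302, 414 and 344 in M. The parental range overlapped with those of E1, E2 and M, and none of the 4 comparisons with the parental population passed (adjusted p from 0.0854 in A to 0.992 in E1). A was 1.43-fold higher than E2 (edgeR adjusted p = 0.0234), a call lost without E2 replicate 1, A replicate 2 or A replicate 3, without parental and E2 replicate 1 together, and with the share of the most counted gene as a covariate (adjusted p up to 0.136). A ratio of the 2 genes' counts within a library does not depend on how libraries are scaled, and the pair was chosen after the values were seen. The parental libraries held 2.41 to 3.73 Hspa5 counts per Hsp90b1 count, E1 1.14 to 1.80, E2 0.958 to 1.63, A 0.460 to 0.535 and M 0.571 to 0.889. The ratio shows unequal change of the 2 genes. Replicate 1 had the highest ratio of its 3 libraries in each population. Parental and E2 replicate 1 also had the highest shares of the gene with the most counts, 49.35% and 49.14% of their libraries, and Hspa5 remained called in all 4 clones without both of these libraries and with that share as a covariate.

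**Figure D3:**
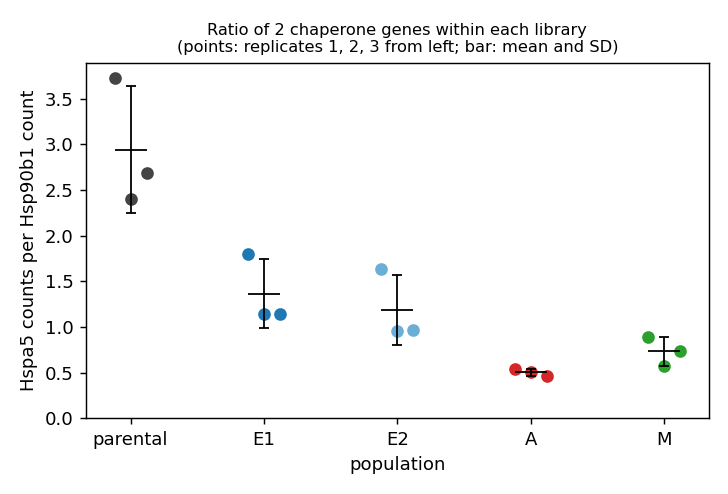
Hspa5 counts per Hsp90b1 count within each of the 15 libraries (points, replicates 1 to 3 from left) with the mean and SD of each population (bars). The parental libraries lie between 2.41 and 3.73, above every library of a clone, and the libraries of A between 0.460 and 0.535, below those of all other populations.

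Per kilobase of exon, Hspa5 was at 262 ± 23.8 CPM (SD, n = 3) in the parental population, the highest of the 34 genes, followed by Ssr3 at 126, Hsp90b1 at 121 and Canx at 117. In A, Hspa5 was at 58.7 ± 3.53 CPM per kilobase and came behind Hsp90b1 at 157, Ssr3 at 120, Canx at 86.9 and Pdia3 at 71.3. Hspa5 took 26.5% of the counts of the 34 genes in the parental libraries, 17.99% in E1, 15.03% in E2, 9.99% in M and 7.53% in A (means of 3). The other 33 genes summed to 2737 CPM in the parental population, 2710 in A, 2285 in M, 2073 in E1 and 2033 in E2. The sum without Hspa5 was 2433 to 2910 CPM in A and 2556 to 2992 in the parental libraries, so these ranges overlap. E1 (1897 to 2170), E2 (1763 to 2234) and M (2201 to 2369) lay below both.

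Manf encodes a small secreted protein that binds BiP. Its level was 30.1, 22.3 and 19.3 CPM in the parental libraries, 8.72, 11.4 and 8.26 in E1, 9.89, 8.31 and 10.6 in E2, 20.6, 21.8 and 22.7 in A, and 17.1, 12.5 and 15.96 in M. The libraries of E1 and E2 lay below those of the other 3 populations, and those of A fell within the parental range. For Manf, E1 had a log2 fold change of -1.33 ± 0.237 (edgeR adjusted p = 4.67e-05), E2 of -1.31 ± 0.215 (adjusted p = 4.31e-05), A of -0.14 (adjusted p = 0.643) and M of -0.65 ± 0.232 (adjusted p = 0.0242). The call of Manf in M was lost without parental replicate 1, M replicate 2 or M replicate 3, with adjusted p up to 0.163. The 123 tested neighbours of Manf within 5 Mb had median log2 fold changes of -0.24 (E1), -0.18 (E2), 0.27 (A) and -0.07 (M). Their part was not tested.

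Dnajc3, which encodes the BiP co-chaperone p58IPK, an inhibitor of PERK, was at 46.9, 53.6 and 50.7 CPM in the parental libraries. It was at 26.4, 23.2 and 24.7 CPM in E1, 21.2, 23.3 and 29.6 in E2, 50.5, 59.9 and 59.3 in A, and 44.2, 36.0 and 39.3 in M. E1, E2 and M did not overlap with the parental libraries, and A did. For Dnajc3, E1 had a log2 fold change of -1.02 ± 0.0777 (edgeR adjusted p = 4.89e-05), E2 of -1.02 ± 0.153 (adjusted p = 3.65e-05), A of 0.17 (adjusted p = 0.446) and M of -0.34 (adjusted p = 0.136). Of the 28 other tested genes within 5 Mb of Dnajc3 on chromosome 14, E1 had a median log2 fold change of -0.55, E2 of -0.91, A of -0.35 and M of -0.44, and their part in the result was not tested. For Hspa5, the median of the 118 neighbours on chromosome 2 lay between -0.08 and 0.08.

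Hspa13, an HSP70-like ATPase of microsomes, went the other way in A. It was at 35.1, 51.1 and 42.5 CPM in the parental libraries, 26.7, 39.2 and 35.3 in E1, 23.2, 45.6 and 39.5 in E2, 84.3, 94.6 and 99.7 in A, and 50.5, 55.3 and 52.7 in M. All libraries of A lay above all others. The log2 fold change in A was 1.11 ± 0.171 (2.16-fold higher, edgeR adjusted p = 7.53e-05), and A was also higher than E1, E2 and M (adjusted p = 2.26e-06, 1.17e-05 and 0.00358). Hspa13 did not pass in E1 (log2 fold change -0.35, adjusted p = 0.235), E2 (-0.25, adjusted p = 0.420) or M (0.30, adjusted p = 0.327). Its 7 tested neighbours within 5 Mb on chromosome 16 had a median log2 fold change of 0.40 in A, where 3 of the 7 were called, and their part in the result was not tested.

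Hyou1, which encodes the large HSP70-like protein GRP170, was lower in E1 and E2 by 1.75-fold each (edgeR adjusted p = 0.000607 and 0.000501) and did not pass in A (adjusted p = 0.405) or M (adjusted p = 0.0869). The 60 tested neighbours of Hyou1 had a median log2 fold change of -0.33 in E1 and -0.13 in E2, and their part was not tested. The other 4 genes of the group passed in no clone: the BiP co-chaperones Dnajb9 and Dnajb11, the nucleotide exchange factor Sil1, and Sdf2l1, which works with Dnajb11. Sdf2l1 and Sil1 were low, at means of 0.668 to 2.16 CPM and 1.83 to 3.26 CPM. Their log2 fold changes against the parental population ran from -1.26 to 0.32 and from -0.80 to -0.32 (smallest edgeR adjusted p = 0.0775 and 0.227). Sdf2l1 was called higher in A than in E2, and this call was lost in 5 of 24 settings. Dnajb9 had log2 fold changes from -0.58 in E1 to 0.70 in A (adjusted p = 0.07001 in A).

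**Figure D4:**
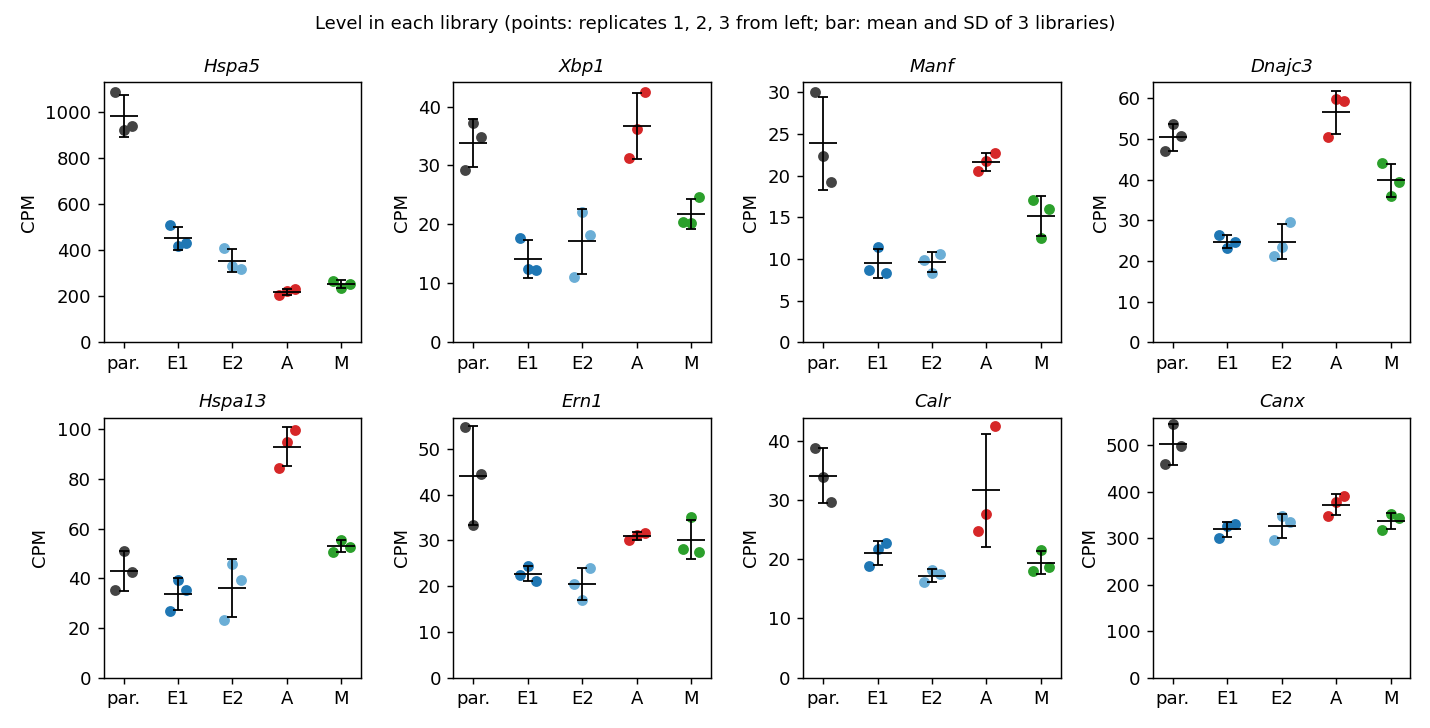
Level in CPM of 8 genes in each library (points, replicates 1 to 3 from left), with the mean and SD of 3 libraries (bars), each panel with its own axis from 0. Xbp1, Manf and Dnajc3 are lowest in E1 and E2 and lie near the parental level in A, Hspa5 is lowest in A and M, and Hspa13 is highest in A.

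The lectin chaperones calreticulin and calnexin hold newly made glycoproteins while they fold. Canx, the membrane-bound form, was at 460, 547 and 499 CPM in the parental libraries, 301, 326 and 332 in E1, 297, 348 and 334 in E2, 347, 379 and 391 in A, and 318, 352 and 343 in M. All 12 libraries of the clones lay below the parental ones. For Canx, E1 had a log2 fold change of -0.65 ± 0.0840 (edgeR adjusted p = 0.00113), E2 of -0.62 ± 0.0992 (adjusted p = 0.00148), A of -0.43 ± 0.0886 (adjusted p = 0.0132) and M of -0.57 ± 0.0846 (adjusted p = 0.00373). The call of Canx in A was lost without parental replicate 2 or A replicate 1 (adjusted p up to 0.0694).

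Calr, the soluble form, was at 38.9, 33.9 and 29.7 CPM in the parental libraries, 18.8, 21.7 and 22.7 in E1, 16.1, 18.1 and 17.5 in E2, 24.7, 27.7 and 42.6 in A, and 17.9, 21.6 and 18.7 in M. A spanned the parental range, with replicate 3 above all other libraries, and the other clones lay below it. For Calr, E1 had a log2 fold change of -0.69 ± 0.138 (edgeR adjusted p = 0.0108), E2 of -0.98 ± 0.123 (adjusted p = 0.000478), M of -0.81 ± 0.138 (adjusted p = 0.00335) and A of -0.11 ± 0.264 (adjusted p = 0.707). Compared directly, Calr was 1.83-fold higher in A than in E2 (adjusted p = 0.000997), 1.501-fold higher than in E1 (adjusted p = 0.0159) and 1.63-fold higher than in M (adjusted p = 0.00804). Without A replicate 3 the calls against E1 and M were lost, and without E1 replicate 1 that against E1 (adjusted p up to 0.243 against E1 and 0.138 against M). Against the parental population, the 80 tested neighbours of Calr within 5 Mb had medians of -0.25 (E1), -0.17 (E2), -0.23 (A) and -0.30 (M). Their part was not tested.

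The disulfide isomerases form and rearrange disulfide bonds. Of the 8, 3 were lower in E1 (P4hb, Pdia4 and Txndc5), 4 in E2 (these and Pdia6) and 1 in M (P4hb). These were 37.5%, 50% and 12.5%, against 7.35%, 8.8% and 6.28% of all genes. Pdia3 was higher in A (12.5%, against 15.1% of all genes). P4hb, protein disulfide isomerase itself, was at 173, 225 and 170 CPM in the parental libraries, 101, 145 and 105 in E1, 115, 137 and 130 in E2, 135, 178 and 174 in A, and 110, 95.8 and 133 in M. E1, E2 and M lay below the parental range and A overlapped with it. For P4hb, E1 had a log2 fold change of -0.70 ± 0.212 (edgeR adjusted p = 0.00481), E2 of -0.57 ± 0.152 (adjusted p = 0.0165), M of -0.74 ± 0.190 (adjusted p = 0.00279) and A of -0.22 (adjusted p = 0.334). The call in E2 was lost without parental replicate 2 or E2 replicate 1 (adjusted p up to 0.103).

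Pdia3, which works with the lectin chaperones, was 1.39-fold higher in A (edgeR adjusted p = 0.0447), and this call was lost in 12 of 24 settings. Those included leaving out parental replicate 1 or 3, E1 replicate 2 or 3, E2 replicate 3, A replicate 2 or 3 or M replicate 3, with adjusted p up to 0.248. Pdia4 was 1.58-fold lower in E1 and 1.498-fold lower in E2 (adjusted p = 0.0118 and 0.0219). Its calls were lost without parental replicate 1, and in E1 without E1 replicate 1 and in E2 without E2 replicate 2 (adjusted p up to 0.135). Txndc5 was 1.61-fold lower in E1 and 1.47-fold lower in E2 (adjusted p = 0.0152 and 0.0457), and both calls were lost without parental replicate 1, which stood at 75.7 CPM against 44.4 and 47.2 in the other parental libraries. The Txndc5 call in E1 was also lost without E1 replicate 2 or 3, and that in E2 without E1 replicate 2 or 3, E2 replicate 2, any library of A or M replicate 1 (adjusted p up to 0.339). Pdia6 was 1.51-fold lower in E2 (adjusted p = 0.0151), and this was lost without parental replicate 1 (adjusted p up to 0.139). Erp29, Erp44 and Creld2 passed in no clone, with log2 fold changes between -0.22 and 0.43.

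In the degradation of misfolded proteins, Sel1l and Syvn1 encode the adaptor and the ubiquitin ligase of the main complex, Derl2 a channel component, Herpud1 a scaffold, and Edem1 and Os9 lectins that pick out misfolded glycoproteins. Of the 6, E1 had 2 lower (33.3%), E2 had 2 (33.3%), A had 3 (50%) and M had 2 (33.3%). Of all genes, 7.35%, 8.8%, 14.9% and 6.28% were lower in that order. A and M each had 1 higher (16.7%), against 15.1% and 7.87% of all genes. Derl2 was at 26.0, 38.0 and 35.8 CPM in the parental libraries, 18.6, 20.2 and 21.2 in E1, 20.1, 22.9 and 18.1 in E2, 14.6, 15.3 and 25.7 in A, and 20.3, 17.1 and 23.2 in M. All libraries of the clones lay below the lowest parental library, by a small margin for A replicate 3. For Derl2, E1 had a log2 fold change of -0.74 ± 0.178 (edgeR adjusted p = 0.0132), E2 of -0.71 ± 0.196 (adjusted p = 0.0146), A of -0.84 ± 0.311 (adjusted p = 0.00202) and M of -0.72 ± 0.211 (adjusted p = 0.0156). Derl2 overlaps Mis12, which had up to 647 counts where Derl2 had at least 386, and the strand setting of the counting is not stated, so these values are uncertain. The calls of Derl2 in E1, E2 and M were lost without parental replicate 2 or 3, that in E2 also without E2 replicate 3, and that in M also without M replicate 2 (adjusted p up to 0.0682).

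Sel1l was at 66.3, 75.1 and 71.4 CPM in the parental libraries, 53.8, 48.7 and 50.4 in E1, 52.4, 48.5 and 47.4 in E2, 48.7, 54.5 and 59.5 in A, and 53.0, 54.5 and 68.2 in M. E1, E2 and A lay below the parental range, and 1 library of M overlapped with it. For Sel1l, E1 had a log2 fold change of -0.48 ± 0.0671 (edgeR adjusted p = 0.0208), E2 of -0.52 ± 0.0683 (adjusted p = 0.0103), A of -0.39 ± 0.0989 (adjusted p = 0.0360) and M of -0.28 (adjusted p = 0.195). The calls in E1 and A were lost without parental replicate 2 or 3, in E1 also without E1 replicate 2 or 3 and in A also without A replicate 1 or 2, and that in A with no filter on low counts (adjusted p up to 0.156).

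Herpud1 was 2.00-fold lower in A (edgeR adjusted p = 0.000200) and 1.92-fold lower in M (adjusted p = 0.00107), and it was at a log2 fold change of -0.47 in both E1 (adjusted p = 0.08997) and E2 (adjusted p = 0.0799). Its 45 tested neighbours within 5 Mb had medians of -0.37 (E1), -0.38 (E2) and -0.29 (both A and M), and their part in the result was not tested. Edem1 was 1.41-fold higher in M (adjusted p = 0.0165), a call lost without parental replicate 1 or M replicate 1 (adjusted p up to 0.0968). Os9 was 1.61-fold higher in A (adjusted p = 0.0331), and this was lost without any 1 of the parental or A libraries (adjusted p up to 0.135). Syvn1 passed in no clone, with log2 fold changes from -0.14 to 0.28. It overlaps Mrpl49, which had up to 464 counts where Syvn1 had at least 151, so its values are uncertain too.

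Among the sensors and transcription factors, Xbp1 and Ern1, the target and the enzyme of the splicing branch, were lower in E1, E2 and M. Xbp1 was at 29.2, 37.2 and 34.9 CPM in the parental libraries, 17.8, 12.4 and 12.3 in E1, 11.1, 22.1 and 18.2 in E2, 31.3, 36.1 and 42.5 in A, and 20.4, 20.2 and 24.7 in M. E1, E2 and M lay below the parental range, and A overlapped with it. For Xbp1, E1 had a log2 fold change of -1.25 ± 0.204 (2.38-fold lower, edgeR adjusted p = 0.000155), E2 of -0.97 ± 0.311 (adjusted p = 0.00154), M of -0.63 ± 0.140 (adjusted p = 0.0369) and A of 0.12 ± 0.164 (adjusted p = 0.712). The call in M was lost without parental replicate 2 or 3, or any library of M (adjusted p up to 0.111). Counts per gene do not tell the spliced from the unspliced RNA of Xbp1.

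Ern1 was at 54.8, 33.3 and 44.5 CPM in the parental libraries, 22.5, 24.5 and 21.2 in E1, 20.6, 16.9 and 24.0 in E2, 29.99, 31.2 and 31.6 in A, and 28.1, 35.0 and 27.4 in M. E1 and E2 lay lowest, A lay just below the lowest parental library, and M overlapped with it. For Ern1, E1 had a log2 fold change of -0.96 ± 0.217 (edgeR adjusted p = 0.000475), E2 of -1.10 ± 0.253 (adjusted p = 8.43e-05), A of -0.51 ± 0.209 (adjusted p = 0.0273) and M of -0.55 ± 0.236 (adjusted p = 0.0351). The calls in A and M were lost without parental replicate 1 or 3, in A also without any library of A and in M also without M replicate 1 or 3 (adjusted p up to 0.206). The calls of Ern1 in E1 and E2 held in all 24 settings. Its 93 tested neighbours within 5 Mb had medians of -0.20 (E1), -0.24 (E2), -0.15 (A) and -0.26 (M), and their part was not tested.

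Atf6 was at 120, 143 and 139 CPM in the parental libraries, 129, 110 and 116 in E1, 102, 108 and 103 in E2, 83.2, 101 and 108 in A, and 101, 130 and 120 in M. E2 and A lay below the parental range, and E1 and M overlapped with it. Atf6 passed in A, at a log2 fold change of -0.46 ± 0.138 (edgeR adjusted p = 0.0133), and not in E1 (-0.18, adjusted p = 0.427), E2 (-0.36, adjusted p = 0.0759) or M (-0.20, adjusted p = 0.393). That call was lost without parental replicate 2 or 3 or A replicate 1 (adjusted p up to 0.0990).

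Eif2ak3 was at 7.20, 5.97 and 6.14 CPM in the parental libraries, 7.11, 6.60 and 7.98 in E1, 4.32, 7.58 and 5.87 in E2, 6.48, 7.63 and 8.76 in A, and 5.99, 8.48 and 7.67 in M. The ranges of all 5 populations overlapped, and the log2 fold changes ran from -0.11 in E2 to 0.24 in A (edgeR adjusted p from 0.493 to 0.811).

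The translocon carries nascent chains into the endoplasmic reticulum. Sec61a1, its channel subunit, was at 103, 93.8 and 87.0 CPM in the parental libraries, 68.2, 57.7 and 65.9 in E1, 57.5, 51.5 and 59.8 in E2, 42.1, 56.1 and 48.4 in A, and 72.1, 86.9 and 73.9 in M. All clones lay below the parental range, M replicate 2 by the smallest margin. For Sec61a1, E1 had a log2 fold change of -0.56 ± 0.101 (edgeR adjusted p = 0.00797), E2 of -0.75 ± 0.0940 (adjusted p = 0.000560), A of -0.95 ± 0.138 (adjusted p = 1.19e-05) and M of -0.28 (adjusted p = 0.192). The call in E1 was lost without E1 replicate 2 (adjusted p up to 0.0624). Ssr1, a subunit of the translocon-associated protein complex, was 1.64-fold higher in A (adjusted p = 0.00197). Sec61b and Ssr3, a second channel subunit and another subunit of that complex, passed in no clone, with log2 fold changes from -0.41 to 0.54.

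The clones were also compared with each other, which leaves the parental libraries out of the contrast. E2 and E1 differed in 0 of the 34 genes by edgeR, where 0.236% of all genes were called, 0.173% higher and 0.0629% lower. At an unadjusted p under 0.05, 1 of the 34 was lower in E2 and 0 were higher, and DESeq2 called 0. A was higher than E1 in 14 of the 34 genes and lower in 3, where 29.6% of all genes were called, 15% higher and 14.6% lower. A was higher than E2 in 14 and lower in 2, where 22.4% of all genes were called, 11.4% higher and 11% lower. These 2 comparisons share the libraries of A. Against M, A was higher in 7 and lower in 1, where 17.7% of all genes were called, 8.55% higher and 9.2% lower. Without A replicate 3, 3 in place of 8 were called there, and 11.3% of all genes. M was higher than E1 in 3 and lower in 1, where 3.89% of all genes were called (2.43% higher and 1.46% lower), and higher than E2 in 2, where 3.5% were called (1.93% higher and 1.57% lower). M against E1 called 1 without E1 replicate 2 or 3. M against E2 called 0 without E2 replicate 1, 4 without parental replicate 1 or M replicate 2, and 1 without E1 replicate 2 or 3, E2 replicate 3, A replicate 2 or 3, or M replicate 1 or 3.

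The 14 genes higher in A than in E1 were Hspa13, Xbp1, Dnajb9, Manf, Dnajc3, Ssr1, Sec61b, Pdia4, Pdia6, Txndc5, Hyou1, Pdia3, Calr and P4hb, and Hspa5 lay on the other side of 0. Of the 14 calls, that of P4hb was lost in 4 of 24 settings. Those of Pdia3, Txndc5 and Calr were lost in 2 settings each and that of Sec61b in 1. In A, Xbp1 was 2.58-fold higher than in E1 (edgeR adjusted p = 1.32e-05) and 2.13-fold higher than in E2 (adjusted p = 0.000330). Dnajc3 was 2.28-fold higher in A than in E1 and than in E2 (adjusted p = 1.39e-06 and 2.56e-06). Manf was 2.29-fold and 2.25-fold higher (adjusted p = 4.19e-05 and 9.99e-05). Dnajb9, a BiP co-chaperone that did not pass against the parental population, was 2.43-fold higher in A than in E1 and 2.22-fold higher than in E2 (adjusted p = 0.00204 and 0.00635). The genes lower in A than in E1 were Hspa5, Herpud1 (1.44-fold, adjusted p = 0.0353) and Sec61a1 (1.31-fold, adjusted p = 0.0399). The call of Herpud1 was lost without E1 replicate 2 or 3 or A replicate 1 or 2 (adjusted p up to 0.120), and that of Sec61a1 without E1 replicate 1 or 3, E2 replicate 3 or A replicate 1 or 3 (adjusted p up to 0.196).

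**Figure D5:**
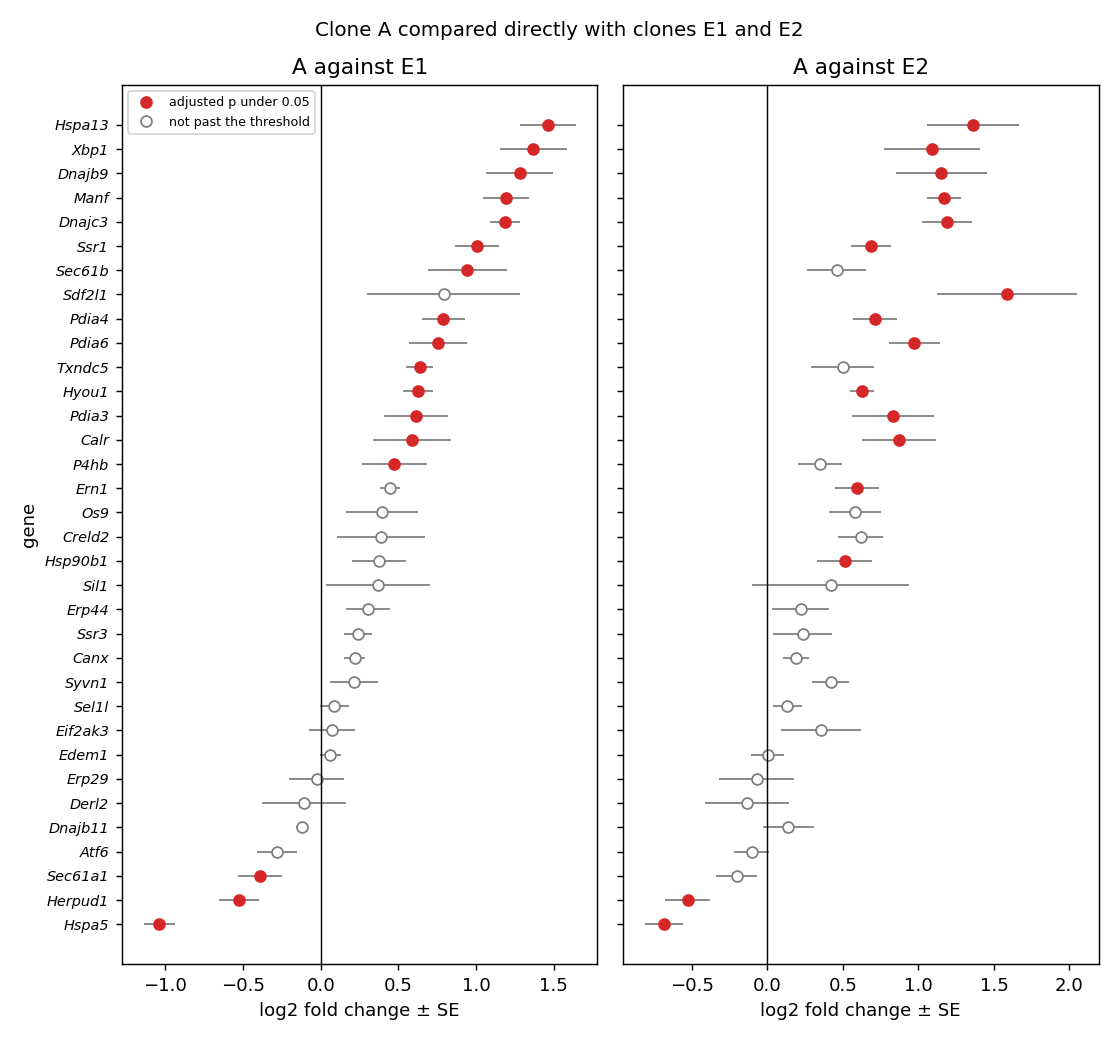
Log2 fold change with its standard error of each of the 34 genes in A against E1 (left) and against E2 (right), in the order of the left panel, filled where the adjusted p was under 0.05. On the left 14 filled points lie above 0 and 3 below, on the right 14 above and 2 below, and Hspa5 has the lowest value in both.

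Where M was set against the E clones, Dnajc3 was 1.61-fold higher in M than in E1 and 1.60-fold higher than in E2 (edgeR adjusted p = 0.00918 and 0.00988), and Pdia4 was 1.63-fold and 1.55-fold higher (adjusted p = 0.0204 and 0.0426). Manf was 1.60-fold higher in M than in E1 (adjusted p = 0.0492). These calls were fragile: that of Manf was lost in 12 of 24 settings (adjusted p up to 0.225) and that of Pdia4 against E2 in 11 (adjusted p up to 0.152). The Dnajc3 call against E1 was lost without E1 replicate 2 or 3, and that against E2 without E2 replicate 1 (adjusted p up to 0.0870).

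The genes with ERSE in the promoter were not all called in the same clones. Differences between these genes were not tested, and passing in none does not show a gene to be unchanged. Hspa5 and Canx were lower in all 4, Calr in E1, E2 and M, Dnajc3 in E1 and E2, and Pdia6 in E2, while Hsp90b1 with its 2 elements, Creld2 and Syvn1 passed in none. Of the 2 genes with ERSE-II, Herpud1 was lower in A and M and Dnajb11 passed in none.

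A further 160 genes of the same pathways were listed, and 157 of them were tested. They too were chosen with earlier results of these data known, so their shares do not test the lists. Against the parental population, 3 were higher and 24 lower in E1, 2 higher and 33 lower in E2, 16 higher and 36 lower in A, and 0 higher and 21 lower in M. The lower genes were 22.9% of the list in A (14.9% of all genes), 21.0% in E2 (8.8%), 15.3% in E1 (7.35%) and 13.4% in M (6.28%). The higher genes were 10.2% of the list in A, against 15.1% of all genes, and below the share of all genes in the other clones too. In M, 5 were higher at an unadjusted p under 0.05. E1 had a median log2 fold change over these genes of -0.17, E2 of -0.20, and A and M of -0.06 each. The 34 genes had lower medians than these in E1, E2 and M, and in A their median lay between 0.03 and 0.17 with 1 library left out.

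Among glycan transfer and trimming genes, E1 had 4 of 22 lower (18.2%), E2 had 7 (31.8%), A had 5 (22.7%) and M had 3 (13.6%). Of all genes, 7.35%, 8.8%, 14.9% and 6.28% were lower in the same order. Stt3a, a catalytic subunit of the oligosaccharyltransferase, was at 291 ± 27.1 CPM (SD, n = 3) in the parental population, 167 ± 9.37 in M, 152 ± 4.57 in A, 149 ± 21.3 in E1 and 145 ± 9.02 in E2. It was called lower in each clone (edgeR adjusted p from 7.4e-06 to 0.00017). Magt1, a subunit of the form of that enzyme with the other catalytic subunit, was higher in A (log2 fold change 0.60, adjusted p = 0.027), and the glucosidase gene Mogs was lower in A (-0.60, adjusted p = 0.048). Among translocation and signal cleavage genes, E1 had 6 of 19 lower (31.6%), E2 had 6 (31.6%), A had 2 (10.5%) and M had 3 (15.8%). The shares of all genes were the same 7.35%, 8.8%, 14.9% and 6.28%, so that in A was below the share of all genes. Srp68, a subunit of the signal recognition particle, was lower in all 4 clones, from 32.0 ± 7.26 CPM in the parental population to 14.2 ± 0.637 in A. The signal peptidase genes Sec11a and Spcs1 were lower in E1 and E2, and Sec11a also in A.

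Among 31 other chaperones and folding enzymes, 7 were higher in A (22.6%, against 15.1% of all genes) and 2 lower (6.45%, against 14.9%). In E1, E2 and M, 3, 4 and 2 were lower (9.68%, 12.9% and 6.45%). Of all genes, 7.35%, 8.8% and 6.28% were lower there. Qsox1, a sulfhydryl oxidase, was at 18.2 ± 1.28 CPM in the parental population, 45.3 ± 3.93 in A, 11.2 ± 1.47 in E1 and 11.8 ± 2.41 in E2. It was higher in A (edgeR adjusted p = 2.6e-06) and lower in E1 and E2 (adjusted p = 0.0089 and 0.017). Ppib, a proline isomerase, was higher in A and lower in E2 (adjusted p = 0.029 and 0.019), and the oxidase gene Ero1b was higher in A (adjusted p = 0.017).

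Of 23 other degradation genes, E1 had 6 lower (26.1%), E2 had 6 (26.1%), A had 7 (30.4%) and M had 5 (21.7%). Of all genes, 7.35%, 8.8%, 14.9% and 6.28% were lower in the same order. Derl1, a relative of Derl2, fell in all 4 clones, from 47.4 ± 2.58 CPM to 28.8 ± 2.73 in E1, 26.1 ± 3.17 in E2, 10.4 ± 0.691 in M and 9.55 ± 0.159 in A. The ubiquitin ligase gene Rnf139 was also lower in all 4, from 76.7 ± 11.7 CPM to between 16.7 ± 2.23 in M and 45.7 ± 4.56 in E2. Derl1 and Rnf139 both lie on chromosome 15, so their calls need not be independent. The part of their location in these results was not tested. Ube2g2, a ubiquitin-conjugating enzyme gene, was lower in E2 and A (edgeR adjusted p = 0.012 and 5.4e-08). Of 23 genes of transport between endoplasmic reticulum and Golgi, E1 had 3 lower (13.0%), E2 had 6 (26.1%), A had 5 (21.7%) and M had 4 (17.4%). The lower shares of all genes were again 7.35%, 8.8%, 14.9% and 6.28%. In A, 3 were higher (13.0%, against 15.1% of all genes). Kdelr3, a receptor that returns chaperones to the endoplasmic reticulum, was lower in E2, A and M, at 5.80 ± 0.230 CPM in A against 16.6 ± 5.12. The coat gene Sec24c was lower in all 4 clones, and the cargo receptor gene Tmed3 in E1.

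Of 17 further sensors and factors, at most 3 were called in any clone. In A, 1 was higher and 2 were lower (5.88% and 11.8%, against 15.1% and 14.9% of all genes). In E1, E2 and M, 2, 1 and 1 were lower (11.8%, 5.88% and 5.88%, against 7.35%, 8.8% and 6.28%). Nfya, a subunit of the factor that binds CCAAT in ERSE, was at 42.9 ± 9.40 CPM in the parental population and was lower in E1, E2 and A (edgeR adjusted p = 0.044, 0.032 and 0.0091). Creb3l2, a relative of Atf6, was lower in E1 and higher in A (adjusted p = 0.011 and 0.0016), and Bak1, a cell death gene, was lower in A (adjusted p = 0.033).

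Of 22 genes of the kinase branch and its stress output, 13 were lower and 1 higher in A, 3 were lower and 1 higher in E2, 1 was higher in E1 and 3 were lower in M. The lower genes were 59.1% of the list in A, against 14.9% of all genes, and 13.6% in E2 and in M, against 8.8% and 6.28%. Compared directly, 13 of the 22 were lower in A than in E1, where 14.6% of all genes were lower. Against E2, 13 were lower in A, where 11% of all genes were. In A, 4 were higher than in E1 (18.2%, against 15% of all genes) and 3 higher than in E2 (13.6%, against 11.4%). The median log2 fold change of these genes in A was -0.76. Atf3, a stress-induced transcription factor gene, was at 20.1 ± 2.24 CPM in the parental population and 2.03 ± 0.495 in A (edgeR adjusted p = 1.4e-09). Ppp1r15a, whose product restores translation after PERK has acted, was at 27.8 ± 5.08 CPM and 8.17 ± 3.22 in A (adjusted p = 3.2e-05), and did not pass in the other clones. Bcl2l11, which encodes the cell death protein BIM, was higher in A, at 178 ± 9.05 CPM against 59.1 ± 16.5 (adjusted p = 1.3e-05).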

How the data were processed

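Raw counts per gene of 15 libraries, 3 for each of 5 populations, are the authors' deposited values, for which the submitters' processing notes name HISAT2, featureCounts and GRCm38 (mm10). Their versions and the strand setting of the counting are not given in the sources used here. Library preparation was directional, per the labels. The deposited normalized counts, log-scale tables and table of fold changes were not used here.

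Identifiers were joined to symbols and GRCm38.p6 coordinates with a RefSeq gene table, which named 25275 of 27179. R 4.3.3 and edgeR 4.0.16 were used: filterByExpr (minimum count 10, minimum total count 15), TMM, and a robust quasi-likelihood fit over all 15 libraries with the population as its only term. Calls are at a Benjamini-Hochberg adjusted p under 0.05 over 12712 genes within each comparison. Log2 fold changes use a prior count of 2, CPM uses TMM-adjusted totals, and the SE combines the SDs of log2 CPM of both populations. Per-length levels divide CPM by exon length. On counts simulated for E1 against the parental population, with 200 of 12487 genes changed, the fit called 48 of 66 genes changed 4-fold, 30 of 67 changed 2-fold and 2 of 67 changed 1.5-fold, and 4 unchanged genes. In the data a larger share, 15.1% of genes, was called in this comparison, so these rates need not carry over.

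The members and lists were chosen with earlier results of these data known. Members given by library were those called at 2-fold or more in a clone or called in 1 direction in at least 3 clones, and Hspa5, Xbp1, Atf6, Ern1 and Eif2ak3. Hsp90b1 was added after its values were seen. Of each list of other genes, up to 3 were named: those called for any difference among the populations, at 5 CPM or more in the highest, with the largest range of means. Alternatives were RLE factors, no filter, a minimum count of 30, DESeq2 1.42.0, a replicate block, fits of the 2 populations alone, 3 treatments of the most abundant RNAs, and each library left out. Replicates are labelled biological, and what separated them is not given in the sources used here.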

Additional observations from a re-analysis of the deposited data

How the results depend on the processing

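The 51 called values of single genes against the parental population and the 47 between clones were recomputed under 24 alternatives, 15 of which leave out 1 library. No direction reversed in 2352 values, 30 of the 51 and 26 of the 47 stayed called throughout, and 179 calls were lost, 148 of them with 1 library left out. Of the counts of the 34 genes called, M against E1 (4) became 8 with no filter, 7 with the share of the top gene as a covariate and 8 without parental replicate 1 and E2 replicate 1, and 1 to 6 with 1 library left out. M against E2 (2) became 5 with no filter, 6 with DESeq2, 8 with the covariate, 0 with only those 2 populations in the fit, and 0 to 4 with 1 library left out. With 1 library left out, A against the parental population ranged from 7 to 13, A against M from 3 to 8, and the medians from -0.53 to -0.40 in E1, -0.53 to -0.38 in E2, 0.03 to 0.17 in A and -0.26 to -0.16 in M. With a replicate block, M against E2 called 7, and the other counts stayed within 1.5 times. Same-numbered libraries deviated together little (correlations of -0.058 to 0.21 over 30 pairs), so the numbers were not taken as pairs. Over all genes, E2 against E1 called 30, and 128 with DESeq2 or no filter, 68 with the block, 65 with the covariate, 64 without both libraries, and 9 to 46 with 1 library left out (9 without E2 replicate 3, 12, 13 and 17 without E1 replicates 2, 3 and 1, and 46 without M replicate 2). E1 against the parental population called 1922, and 1084 and 1173 without E1 replicates 2 and 3. M against it called 1798, and 1145 without M replicate 3, and A against M called 2256, and 1479 without A replicate 3. E2 against the parental population called 2281, and 1440 without both libraries. M against E1 called 495, and 817 with no filter, 781 with the covariate, 824 without M replicate 2, and 210, 216 and 222 without E1 replicate 3, E1 replicate 2 and M replicate 3. M against E2 called 445, and 790 with no filter, 760 with the covariate, 734 with DESeq2, 699 with the block, 174 with only those 2 populations, 723 without M replicate 2, and 241 and 208 without E2 replicate 1 and M replicate 3. The cause of these shifts was not tested. Genes at a few CPM, such as Sil1 and Sdf2l1, are limited by depth.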
